A study of Mus musculus with 14 samples.

Results

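The genes described here are p53 itself (Trp53) and 9 genes that p53 is known to activate: Mdm2, Pmaip1, Bbc3, Aen, Phlda3, Trp53inp1, Cdkn1a, Btg2 and Ccng1. They were chosen by name with earlier results of these data known, matched by Ensembl identifier, and followed through mouse embryoid bodies that differ in Foxk1. Their counts beside those of all genes therefore describe the 10 and do not test them as a set. All 10 were found among the 36047 genes of each deposited table, and all 10 passed the filter on low counts in both. Their lowest value was a count of 47, for Pmaip1 in a control library of day 5.

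Embryoid bodies are balls of differentiating cells that arise when embryonic stem cells are grown in suspension. The controls came from the line iHA-Foxk1 and were compared with Foxk1 KO cells, a knockout of a forkhead transcription factor. Both lines were kept with LIF on irradiated feeder fibroblasts, parted from them by plating, and then shaken in mesodermal medium for 3, 5 or 10 days. A further group of day 10 held Foxk1 KO embryoid bodies with IWR1, an inhibitor of Wnt signalling that acts by stabilising Axin. Its dose and timing are not stated in the labels. There were 7 groups of 2 libraries, which the labels do not say came from separate cultures, so the p-values reflect the spread between these samples only, and that spread may be technical. Control titles of days 3 and 5 carry the letters ND, not interpreted here. Since there was 1 line of each kind, an effect of losing Foxk1 and any other difference between the lines cannot be told apart, and "KO effect" below means the difference between KO and control libraries. Protein was not measured.

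In unstressed cells the ubiquitin ligase Mdm2 binds the p53 protein and marks it for degradation, so p53 activity is set mostly at the level of the protein and not of its RNA. DNA damage and other stresses release p53, which then binds DNA as a tetramer and activates genes that halt the cell cycle, genes that start death through mitochondria, and Mdm2, which closes a negative feedback loop. Embryonic stem cells hold abundant p53, and it takes part in their differentiation and in the loss of damaged cells.

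p53 recognises a pair of copies of a consensus decamer, and 8 of the 10 genes had promoter windows in the RefSeq table of build GRCm38.p6, which runs from 250 bases before to 50 bases after each transcription start. Pmaip1 and Trp53inp1 had none in it. The windows were searched on both strands for the p53 consensus decamer by exact match, and since that consensus is its own reverse complement a match counts once. A match was found for 5 genes, Cdkn1a, Aen, Mdm2, Ccng1 and Trp53, and none for Bbc3, Btg2 and Phlda3. A gene can have more than 1 window: the 8 genes had 12, of which 6 held a match, and the Aen match lay in more than 1. Of all 32851 windows there, 8.36% held at least 1 match, a share per window and not per gene. A pair of matches separated by no more than 13 bases was found for Cdkn1a alone among these genes, and in 24 of all windows, or 0.0731%. A match is a description of the letters and not a measured binding site. The 250 bases before the Cdkn1a start (GRCm38.p6, chr17:29090729-29090978, plus strand) are shown because they hold that pair, in capitals, 12 bases apart:
Cdkn1a: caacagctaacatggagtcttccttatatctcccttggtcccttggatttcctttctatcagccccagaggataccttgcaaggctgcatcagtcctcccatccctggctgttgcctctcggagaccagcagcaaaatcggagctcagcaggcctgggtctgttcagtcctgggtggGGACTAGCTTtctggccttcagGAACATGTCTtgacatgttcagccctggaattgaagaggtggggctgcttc
Directly after the second Cdkn1a match stand the letters tgacatgttc, which differ from the consensus at their first base alone. The exact search therefore passed over them, and which letters p53 binds was not measured. The single matches of the others are shown in capitals with 10 bases on either side, so that they can be compared. The capitals lie at chr7:78895937-78895946 (plus strand) for Aen, chr10:117710935-117710944 (minus strand) for Mdm2, chr11:40755462-40755471 (minus strand) for Ccng1 and chr11:69580284-69580293 (plus strand) for Trp53:
Aen: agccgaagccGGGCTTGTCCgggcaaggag
Mdm2: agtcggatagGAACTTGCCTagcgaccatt
Ccng1: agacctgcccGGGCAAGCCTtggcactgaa
Trp53: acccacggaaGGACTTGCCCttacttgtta

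The genes themselves are spread over 7 chromosomes of mm10, as annotated by GENCODE vM21. Trp53 (chr11:69580359-69591873) and Ccng1 (chr11:40748552-40755311) lie on chromosome 11, Bbc3 (chr7:16308393-16318205) and Aen (chr7:78895854-78911209) on chromosome 7, and Btg2 (chr1:134075170-134079120) and Phlda3 (chr1:135766119-135769136) on chromosome 1. Mdm2 (chr10:117688875-117710758), Cdkn1a (chr17:29090976-29100727), Trp53inp1 (chr4:11156431-11174379) and Pmaip1 (chr18:66458533-66465565) are on chromosomes of their own. All are protein coding, and a value counts RNA of the whole gene. Cdkn1a shares 273 exon bases with AC167363.2, a gene annotated on the opposite strand and not analysed here; whether counting used strand is not settled, so in each Cdkn1a value the RNA of these 2 genes cannot be told apart. The only close copy of a member is the pseudogene Trp53-ps, which stood at 0 CPM in all day 3 and day 5 libraries and at no more than 0.0492 CPM at day 10.

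The libraries of days 3 and 5 held 10574194 to 11621032 estimated counts, and those of day 10 held 34466708 to 52747273. The level of a gene is its CPM, its count scaled to the TMM-adjusted size of its library. Differences are log2 fold changes ± SE, and a gene is called where the p of the quasi-likelihood test of edgeR, adjusted by Benjamini-Hochberg over every gene tested, is under 0.05. Foxk1 (chr5:142401497-142462011) fell in KO from 81.4 ± 6.97 to 16.3 ± 0.209 CPM at day 3 (-2.32 ± 0.09, adjusted p = 2.22e-07) and from 134 ± 0.812 to 35.9 ± 3.26 CPM at day 5 (-1.90 ± 0.09, adjusted p = 4.91e-07; SD, n = 2). At day 10 it stood at 65.0 and 80.1 CPM in the control libraries, at 71.3 and 41.8 CPM in those labelled Foxk1 KO and at 26.4 and 52.9 CPM in those labelled Foxk1 KO with IWR1. KO and control overlapped and no difference was called at day 10 (for KO against control -0.36 ± 0.39, adjusted p = 0.722), so that day's directions rest on the labels alone.

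**Figure D1:**
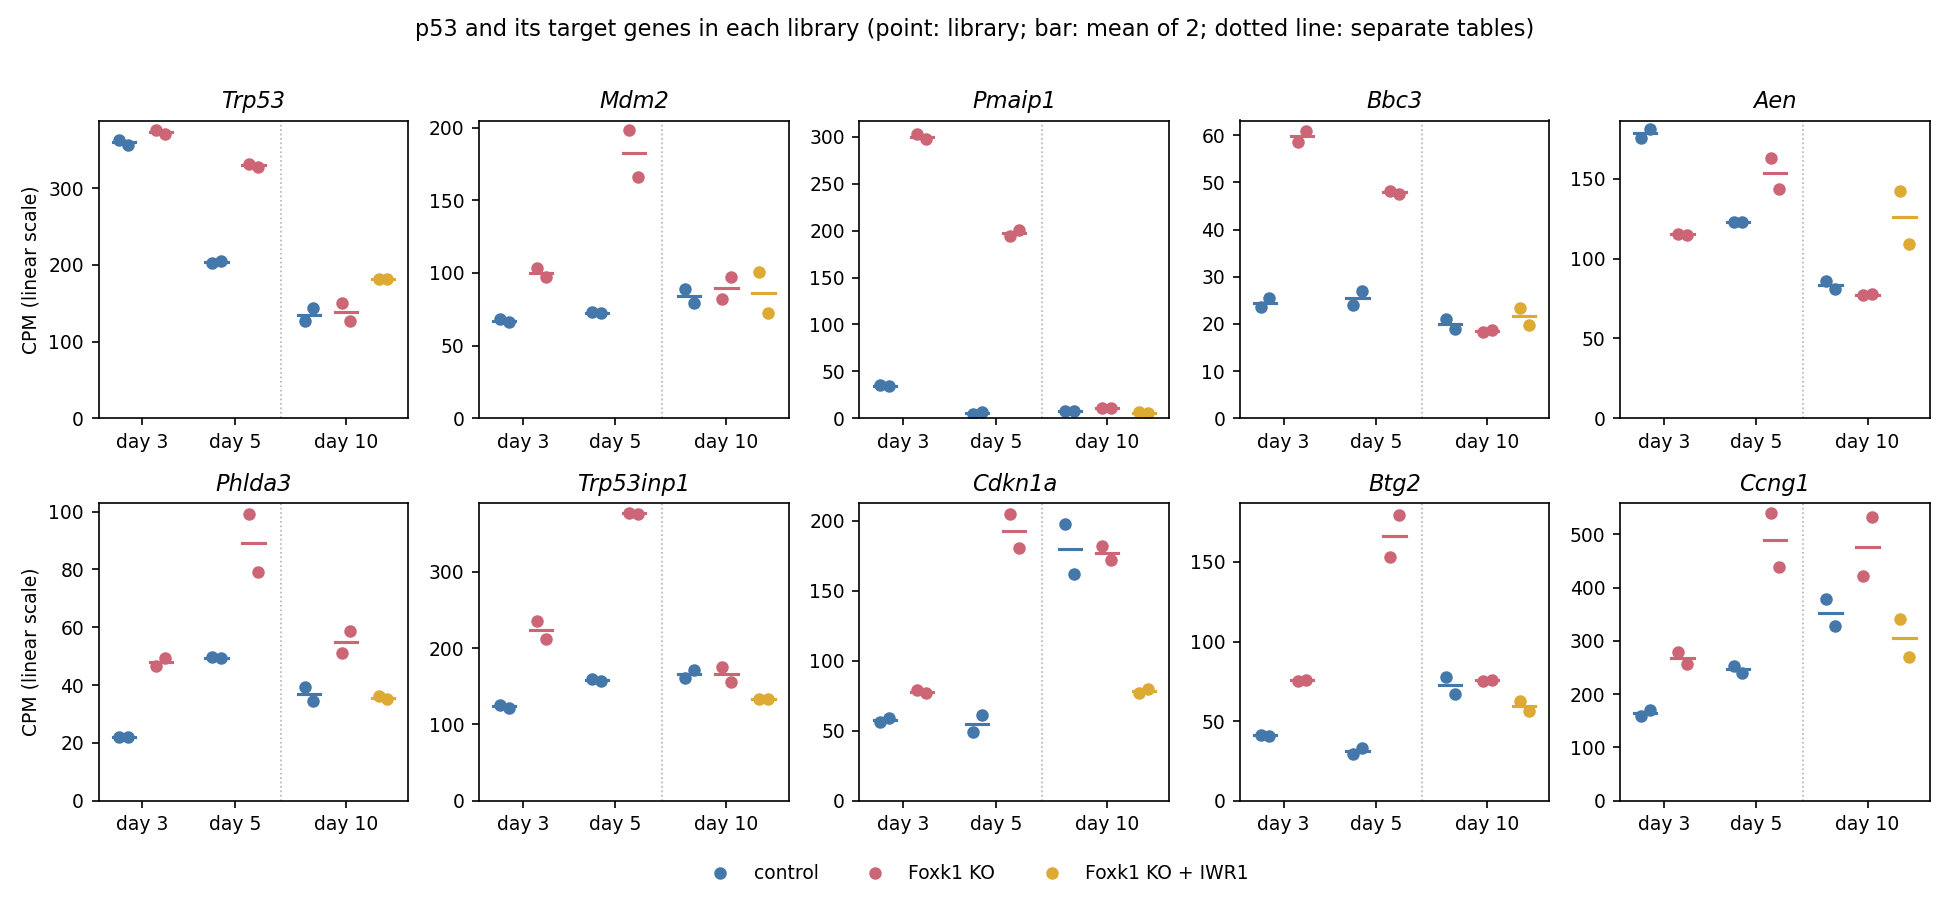
CPM on a linear axis from 0 (vertical) of the 10 genes in every library, by day (horizontal) and group (colour); points are libraries and bars the mean of 2. Pmaip1 stands at 303 and 298 CPM in the KO libraries of day 3 and at 35.0 and 34.2 CPM in the controls, and in all libraries of day 10 it lies between 5.37 and 10.7 CPM.

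At day 3, when the controls express genes of the primitive streak, most p53 target genes were higher in KO embryoid bodies while the RNA of p53 itself was not called different. Of the 10 genes, 8 rose in KO, 1 fell and 1 was not called. Of all 14430 genes tested, 16% were called higher and 16.9% lower, 32.9% in all. The median log2 fold change was 0.78 for the 10 genes and -0.01 for all genes tested. As the 10 were chosen with earlier results of these data known, such shares and medians are description only, here and below. The largest rise was that of Pmaip1 and the fall was that of Aen. In these bulk libraries, fewer cells of a type and less RNA per cell cannot be told apart.

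Trp53 stood at 364 and 356 CPM in the control libraries of day 3 and at 376 and 371 CPM in those of KO. The KO libraries lay just above the controls without overlap, and the difference was not called (0.05 ± 0.04, adjusted p = 0.357). Mdm2 RNA, from the gene of the feedback loop, stood at 68.0 and 66.5 CPM in control and at 103 and 96.9 CPM in KO, with both KO libraries above both controls (0.57 ± 0.08, adjusted p = 0.000896).

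Among the genes of cell death, Pmaip1 (Noxa), a BH3-only protein that neutralises Mcl1, stood at 35.0 and 34.2 CPM in control and at 303 and 298 CPM in KO. Both KO libraries were far above both controls, 8.69-fold in the fit (3.12 ± 0.08, adjusted p = 6.86e-09). Bbc3 (Puma), a BH3-only protein that binds all the pro-survival BCL2 proteins, stood at 23.6 and 25.4 CPM in control and 58.6 and 61.0 CPM in KO (1.29 ± 0.09, adjusted p = 7.27e-06), again without overlap. Phlda3, whose protein competes with Akt for membrane lipids and so lowers Akt signalling, stood at 21.9 and 22.2 CPM in control and 46.5 and 49.5 CPM in KO (1.12 ± 0.11, adjusted p = 9.66e-05). Trp53inp1, a stress protein that promotes p53 phosphorylation and autophagy, stood at 125 and 121 CPM in control and 236 and 212 CPM in KO (0.86 ± 0.06, adjusted p = 6.12e-06). For these 4 genes every KO library was above every control library, as for 36.7% of all genes tested. Aen, a nuclease of apoptotic cells, went the other way: it stood at 176 and 181 CPM in control and at 116 and 115 CPM in KO, with both KO libraries below both controls (-0.63 ± 0.06, adjusted p = 0.000106).

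All 3 genes that restrain the cell cycle were also called higher in KO. Cdkn1a, which encodes the cyclin-dependent kinase inhibitor p21, stood at 55.9 and 59.0 CPM in control and 79.1 and 76.6 CPM in KO. The KO libraries were higher without overlap (0.44 ± 0.10, adjusted p = 0.0122), but the call was lost when either replicate of either group was left out, with adjusted p = 0.0971 and 0.0609 without control replicates 1 and 2, and 0.0843 and 0.0627 without KO replicates 1 and 2. Btg2, an antiproliferative cofactor of mRNA deadenylation, stood at 41.3 and 40.9 CPM in control and 75.3 and 76.1 CPM in KO (0.88 ± 0.09, adjusted p = 0.000107). Ccng1, which encodes cyclin G1, a partner of protein phosphatase 2A that acts on Mdm2, stood at 159.7 and 170.3 CPM in control and 279 and 256 CPM in KO (0.70 ± 0.10, adjusted p = 0.00146). Both Btg2 and Ccng1 were higher in KO without overlap.

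Markers of several cell types differed as well. All 6 markers of primitive streak and early mesoderm fell in KO, and their summed level was 2061 to 2153 CPM in control and 211 to 257 CPM in KO libraries. The 5 tested markers of neural progenitors, of 6, rose, with a summed level of 165 to 165 CPM in control and 314 to 320.3 CPM in KO (Neurog2 at 0 in both, Olig2 in control). Pluripotency markers summed to 1375 to 1385 CPM in control and 1424 to 1495 CPM in KO, with 1 of 6 called, lower. Fibroblast markers, which include feeder cells, summed to 17.8 to 17.9 and 26.2 to 31.9 CPM, with 1 of 7 tested called higher, and with Lum at 0 in both groups and S100a4 in control. Endoderm markers summed to 52.1 to 59.8 CPM in control and 8.67 to 12.1 CPM in KO, with 2 of 4 called lower and Afp at 0 in control. Endothelial markers summed to 113 to 122 CPM in control and 21.7 to 22.9 CPM in KO, with 1 of 4 called, lower. Of these 4 markers 3 had a log2 fold change above 0. No marker of heart muscle, erythroid cells or macrophages was called, but many lay near 0. Of the 4 macrophage markers 1 was tested, with Ptprc at 0 in control and Adgre1 in KO. Erythroid markers summed to 0.528 to 0.792 CPM in control and 0.707 to 1.18 CPM in KO. Hba-x was at 0 in both groups, Hbb-bh1 and Hbb-y in control, and the heart muscle marker Nkx2-5 in KO. The part of these cell types in the p53 target values was not tested.

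At day 5 all 10 genes were higher in KO, Trp53 among them, where 21.9% of all genes tested were called higher and 43.5% either way, and the median of the 10 was 1.12 against 0.01 for all genes. Both KO libraries lay above both controls for each of the 10, as they did for 35.4% of all genes tested. The widest gaps were those of Pmaip1, Btg2 and Cdkn1a.

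Trp53 RNA stood at 203 and 206 CPM in control and at 332 and 328 CPM in KO (0.69 ± 0.04, adjusted p = 3.05e-06). Mdm2 stood at 72.8 and 72.4 CPM in control and at 198 and 166 CPM in KO (1.33 ± 0.08, adjusted p = 3.84e-06), and its KO libraries were further from each other than those of Trp53.

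Pmaip1 was nearly silent in the controls of day 5, at 4.66 and 6.36 CPM, and stood at 194 and 201 CPM in KO. That is 35.8-fold in the fit (5.16 ± 0.10, adjusted p = 1.54e-09), the widest gap of any of the 10 genes in any comparison made here. Bbc3 stood at 24.1 and 26.9 CPM in control and 48.2 and 47.6 CPM in KO (0.91 ± 0.09, adjusted p = 6.07e-05). Phlda3 stood at 49.6 and 49.4 and 99.1 and 79.1 CPM (0.85 ± 0.10, adjusted p = 0.000223), and Trp53inp1 at 159 and 156 and 377 and 375 CPM (1.26 ± 0.06, adjusted p = 5.00e-07). Aen, lower in KO at day 3, was now the higher in KO, at 123 and 123 CPM in control and 163 and 144 CPM in KO (0.32 ± 0.06, adjusted p = 0.00365).

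Of the genes that restrain the cell cycle, Cdkn1a stood at 48.8 and 60.9 CPM in control and 205 and 180.4 CPM in KO (1.81 ± 0.10, adjusted p = 3.84e-06). Btg2 stood at 29.4 and 33.3 CPM in control and 153 and 179.6 CPM in KO (2.41 ± 0.09, adjusted p = 1.76e-07). Ccng1 stood at 253 and 239 and 539.7 and 439 CPM (0.99 ± 0.10, adjusted p = 0.000171). The calls of all 10 genes at day 5 held in every alternative run, including each replicate left out.

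Again markers of other cell types moved with the groups. Pluripotency markers summed to 51.6 to 53.3 CPM in control and 188 to 342 CPM in KO, with 5 of 6 called higher in KO. Erythroid markers summed to 1121 to 1163 CPM in control and 27.8 to 106 CPM in KO, with 4 of 5 called lower. Fibroblast markers summed to 1050.2 to 1299.9 CPM in control and 106 to 378 CPM in KO, with 4 of 7 tested called lower. Primitive streak and early mesoderm markers, lower in KO at day 3, summed to 29.4 to 43.3 CPM in control and 124 to 205 CPM in KO, with 3 of 6 called higher. Neural progenitor markers summed to 14.9 to 21.2 CPM in control and 66.8 to 80.3 CPM in KO, with 2 of 5 tested called higher. Of the remaining lists, heart muscle had 1 marker called higher and 2 lower of 6, endoderm 1 higher and 1 lower of 4, macrophages 1 higher of 1 tested and endothelium 0 of 4. Neurog2 was at 0 in both groups, the macrophage markers Ptprc in control and Adgre1 in KO, and no other marker was. The part of these cell types in the p53 target values was not tested.

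**Figure D2:**
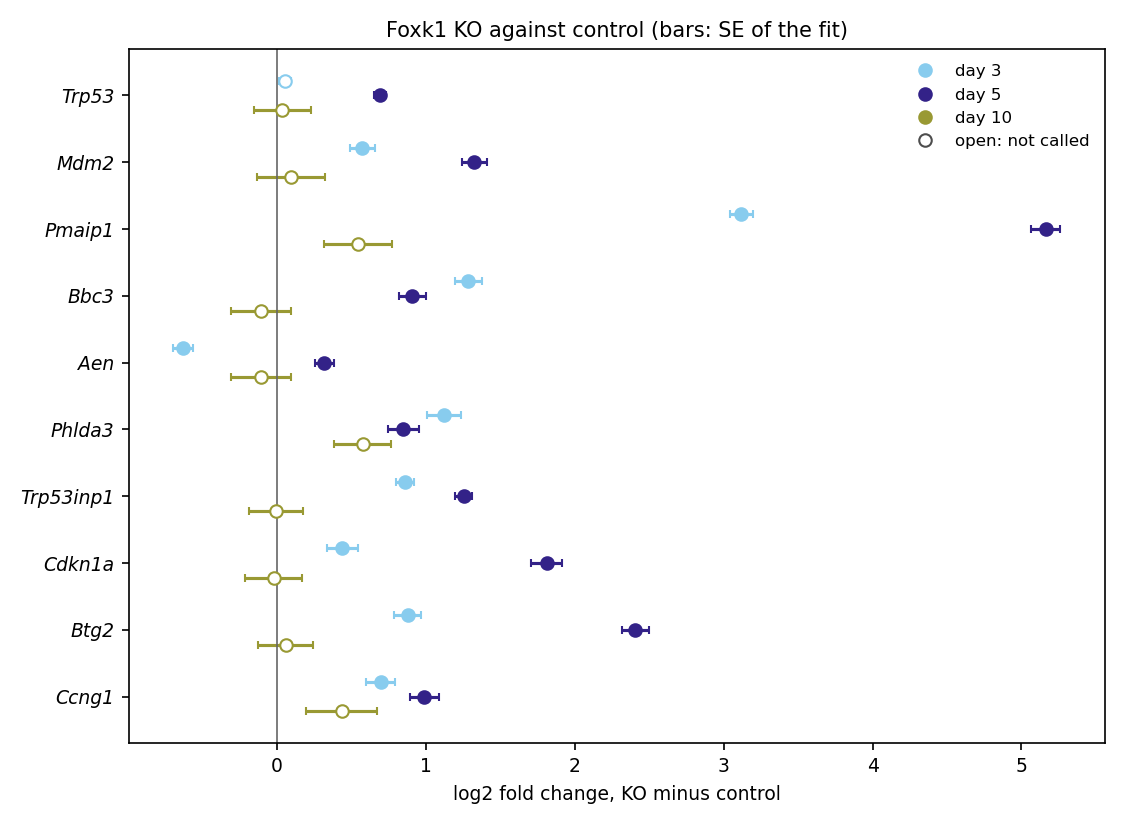
Log2 fold change of KO minus control (horizontal) for each of the 10 genes (vertical) at days 3, 5 and 10 (colour); points are the fitted values, bars their SE, and open points were not called. Pmaip1 lies furthest right at day 3 (3.12) and day 5 (5.16), and all points of day 10 are open.

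The KO effect, as a log2 fold change, rose between days 3 and 5 for most of the 10 genes, as tested by the difference between the effects. This difference (day 5 minus day 3) was called above 0 for 7 genes, below 0 for 0 and not called for 3. Of all genes tested 13.4% were called above 0 and 10.8% below. The difference was 2.04 ± 0.13, adjusted p = 1.36e-05 for Pmaip1, 1.53 ± 0.13, adjusted p = 5.60e-05 for Btg2 and 1.37 ± 0.15, adjusted p = 0.000299 for Cdkn1a. For Aen, whose effect changed sign from -0.63 to 0.32 and so did not widen, it was 0.95 ± 0.09, adjusted p = 0.000123. Mdm2, Trp53 and Trp53inp1 also passed, between 0.40 and 0.75 on the log2 scale. Bbc3 (-0.38 ± 0.13, adjusted p = 0.0565), Ccng1 (0.29 ± 0.14, adjusted p = 0.165) and Phlda3 (-0.27 ± 0.15, adjusted p = 0.231) did not. The call of Bbc3 was reached, below 0, without KO replicate 1 of day 5 (adjusted p = 0.0252) or replicate 2 (adjusted p = 0.0238), with DESeq2 size factors (adjusted p = 0.0485) and with upper-quartile scaling (adjusted p = 0.0472); that of Ccng1 without replicate 2 (adjusted p = 4.85e-05) and that of Phlda3, below 0, without replicate 1 (adjusted p = 0.00372).

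Seen within each line, the genes took different courses from day 3 to day 5. These comparisons use the same libraries as the KO effects, so their values are given side by side. In control, 3 genes rose, 4 fell and 3 were not called, where 30.6% of all genes tested rose and 30.2% fell. In KO, 7 rose and 3 fell, where 28.3% of all genes rose and 25.5% fell. In all, 7 of the 10 were called in control beside 60.8% of all genes, a share near the background, and 10 of 10 in KO beside 53.8%.

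Trp53 RNA fell in both lines, by 0.82 ± 0.04 on the log2 scale in control (adjusted p = 5.39e-07) and by 0.18 ± 0.04 in KO (adjusted p = 0.00537). Pmaip1 likewise fell in both, to nearly nothing in control (-2.65 ± 0.11, adjusted p = 1.82e-07) and less in KO (-0.60 ± 0.07, adjusted p = 7.88e-05). Bbc3 was not called in control (0.06 ± 0.09, adjusted p = 0.622) and fell in KO (-0.32 ± 0.08, adjusted p = 0.0101), a call lost without KO replicate 2 of day 3 (adjusted p = 0.0744) and with DESeq2 (adjusted p = 0.0734). Aen fell in control (-0.54 ± 0.06, adjusted p = 8.95e-05) and rose in KO (0.41 ± 0.06, adjusted p = 0.000601).

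Btg2 too went down in control (-0.39 ± 0.10, adjusted p = 0.00638), a call lost without control replicate 1 of day 5 (adjusted p = 0.0566), and up in KO (1.14 ± 0.08, adjusted p = 7.11e-06). For Cdkn1a no change was called in control (-0.07 ± 0.11, adjusted p = 0.612) and a rise in KO (1.31 ± 0.10, adjusted p = 1.30e-05). Mdm2 was uncalled in control (0.11 ± 0.09, adjusted p = 0.286) and rose in KO (0.86 ± 0.08, adjusted p = 2.73e-05). In both lines Phlda3 rose (1.16 ± 0.11 in control and 0.89 ± 0.10 in KO), as did Ccng1 (0.58 ± 0.10 and 0.87 ± 0.10) and Trp53inp1 (0.35 ± 0.06 and 0.75 ± 0.06).

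Mean levels were compared among the 4 groups of days 3 and 5. The BH3-only genes Pmaip1 and Bbc3 were highest in another group than the genes that restrain the cell cycle. Pmaip1, Bbc3 and Trp53 were highest in KO at day 3. There Trp53 was not called different from control (adjusted p = 0.357). The call for the fall of Bbc3 in KO from day 3 to day 5 was lost with DESeq2 (adjusted p = 0.0734). Mdm2, Cdkn1a, Btg2, Ccng1, Phlda3 and Trp53inp1, 6 genes, were highest in KO at day 5, and Aen in control at day 3. Not every BH3-only gene followed Pmaip1 and Bbc3. Bmf had its highest mean in control at day 5 (130.6 CPM) and Bcl2l11 in KO at day 5 (57.5 CPM).

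**Figure D3:**
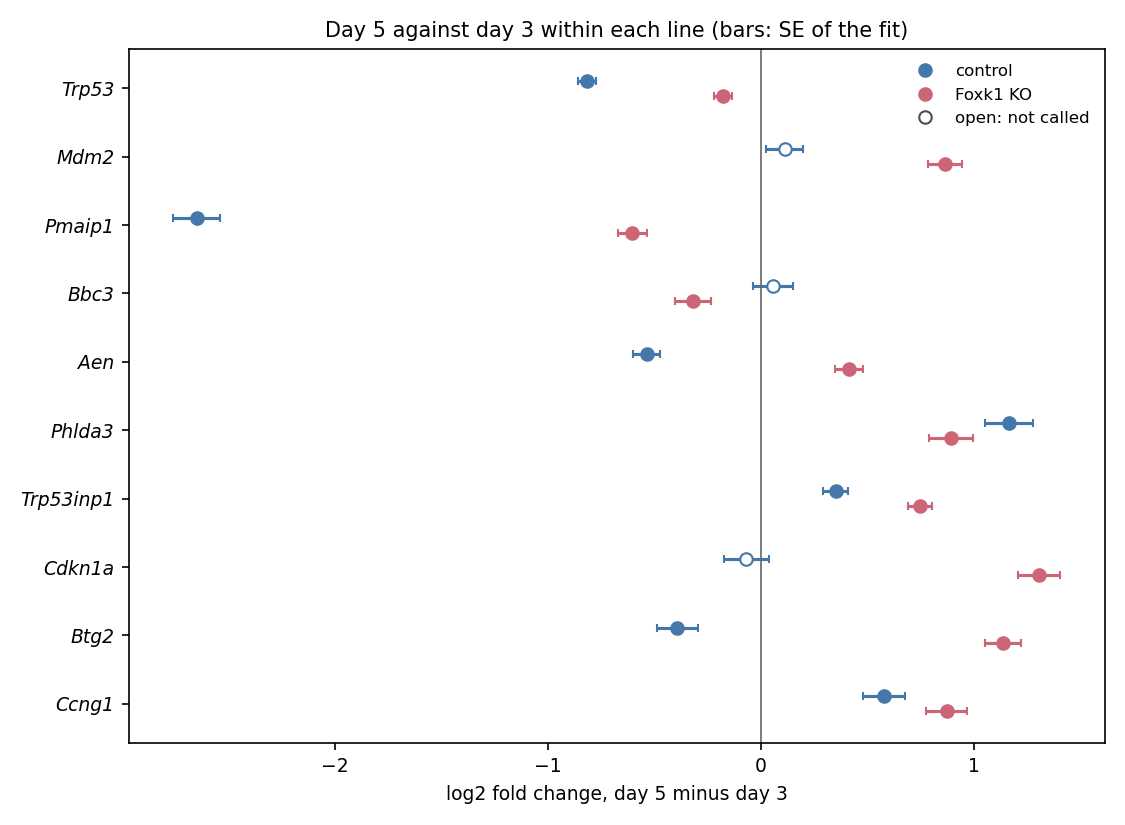
Log2 fold change of day 5 minus day 3 (horizontal) for each of the 10 genes (vertical) in control and in KO (colour), with the SE of the fit as bars and open points for genes not called. Aen and Btg2 lie below 0 in control and above 0 in KO, and Pmaip1 lies below 0 in both.

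Levels of different genes were compared per length, as CPM per kb of annotated exon (mean ± SD, n = 2). In control at day 3, Trp53 led at 89.0 ± 1.27, followed by Ccng1 at 47.0 ± 2.13 and Aen at 30.8 ± 0.710 CPM per kb, and the other 7 lay between 11.5 (Bbc3) and 19.1 (Trp53inp1). In KO at day 3, Pmaip1 led at 109.9 ± 1.16, above Trp53 at 92.3 ± 0.954 and Ccng1 at 76.1 ± 4.53 CPM per kb, while Aen at 19.9 ± 0.0908 and Mdm2 at 19.7 ± 0.885 CPM per kb, the last in order, were within their spread of each other. By this order Pmaip1 was at rank 9 of the 10 genes in control and at rank 1 in KO.

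In control at day 5 Ccng1 led at 70.2 ± 2.79 CPM per kb and Pmaip1 was last at 2.02 ± 0.440 CPM per kb. KO at day 5 had Ccng1 at 139 ± 20.3, Trp53 at 81.6 ± 0.567 and Pmaip1 at 72.4 ± 1.74 CPM per kb. There Btg2 at 60.7 ± 6.79, Trp53inp1 at 58.1 ± 0.198, Phlda3 at 57.2 ± 9.11 and Cdkn1a at 54.2 ± 4.88 CPM per kb could not be ordered beyond their spread. In all 3 groups of day 10 Ccng1 was the highest of the 10, at 100.4 ± 10.3 in control, 136 ± 22.3 in KO and 86.9 ± 14.2 CPM per kb with IWR1. Pmaip1 was the lowest in each, at 2.67 ± 0.0494, 3.90 ± 0.00919 and 2.15 ± 0.265 CPM per kb.

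At day 10 no member was called different between KO and control: 0 of 10 by the main test, and DESeq2 called 0 too. Of all 17022 genes tested 5.27% were called (1.92% higher and 3.35% lower), and a count of 0 in 10 is near that share. Only Phlda3 had an unadjusted p under 0.05. The day 10 libraries were deposited in a table of their own with a wider spread between replicates, and levels set beside those of days 3 and 5 were scaled separately.

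Phlda3 stood at 39.4 and 34.3 CPM in control and 51.1 and 58.8 CPM in KO, without overlap (0.58 ± 0.19, adjusted p = 0.149). Pmaip1, at 7.39 and 7.20 CPM in control and 10.6 and 10.7 CPM in KO, was low in both groups (0.54 ± 0.23, adjusted p = 0.253). Cdkn1a, at 198 and 162 CPM in control and 182 and 172 CPM in KO, overlapped (-0.02 ± 0.19, adjusted p = 0.974). So did Trp53, at 127 and 143 and 151 and 126 CPM (0.04 ± 0.19, adjusted p = 0.952), and Mdm2, at 89.1 and 79.1 and 82.3 and 97.4 CPM (0.09 ± 0.23, adjusted p = 0.892). For these 5 genes the SE was at least 0.19 on the log2 scale, so a small difference was not detectable. Larger differences could go uncalled at day 10 too, as did that of the pro-survival gene Bcl2 (-1.18 ± 0.26, adjusted p = 0.0556). The remaining 5 lay between -0.11 (Bbc3) and 0.43 (Ccng1).

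IWR1-treated KO embryoid bodies of day 10 were compared with untreated KO and with control. These comparisons share libraries with each other and with KO against control, so their values stand side by side. Cdkn1a was the only one of the 10 genes called in either: it was lower with IWR1 than in untreated KO, where 13.9% of all genes tested were called, 8.08% lower and 5.77% higher, and lower than in control, where 9.12% were called, 6.13% lower and 2.99% higher. The count of 1 in 10 is near those shares.

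Cdkn1a stood at 77.2 and 79.8 CPM with IWR1, below all 4 other libraries of day 10 (182 and 172 CPM in KO, 198 and 162 CPM in control). The log2 fold change was -1.17 ± 0.19, adjusted p = 0.0172 against KO and -1.20 ± 0.19, adjusted p = 0.0174 against control. The first call was lost without KO replicate 1 (adjusted p = 0.0539) or IWR1 replicate 1 (adjusted p = 0.0705), and the other without IWR1 replicate 1 (0.0774) or control replicate 1 (0.155) or 2 (0.0803), again as adjusted p.

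Other genes came close to the threshold against untreated KO. Pmaip1 stood at 6.40 and 5.37 CPM with IWR1 (-0.85 ± 0.23, adjusted p = 0.0544), below both KO libraries. Aen was at 143 and 109 CPM with IWR1 and at 77.3 and 77.7 CPM in KO (0.70 ± 0.20, adjusted p = 0.0635), so that it lay above KO while Pmaip1 lay below. Phlda3 was at 36.2 and 35.1 CPM with IWR1 (-0.62 ± 0.19, adjusted p = 0.0722), below both KO libraries and within the range of the controls. DESeq2 called Pmaip1 (adjusted p = 0.0145), Phlda3 (adjusted p = 0.0352) and Aen (adjusted p = 0.0174) besides Cdkn1a, and Aen was also called without IWR1 replicate 2 (adjusted p = 0.0391). Trp53, at 182 and 182 CPM with IWR1, was above all other libraries of day 10 but not called (0.39 ± 0.19, adjusted p = 0.201 against KO and 0.43 ± 0.19, adjusted p = 0.179 against control).

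Cell type markers moved with IWR1. Fibroblast markers summed to 1250.4 to 3394 CPM with IWR1, 20541 to 26362 CPM in untreated KO and 7727 to 8306 CPM in control, and 6 of 8 were called lower than in KO and 1 higher. Neural progenitor markers summed to 96.3 to 151, 30.6 to 56.0 and 54.9 to 75.0 CPM in the same order, with 5 of 6 called higher than in KO. Heart muscle markers, 2074 to 2185 CPM in control, summed to 56.8 to 108 CPM in KO and 105 to 116 CPM with IWR1, where 1 of 6 was called higher than in KO. Endoderm markers summed to 72.3 to 123 CPM with IWR1, 502 to 1192 CPM in KO and 2999 to 3615 CPM in control, with 2 of 4 called lower than in KO and 1 higher. Macrophage markers summed to 59.1 to 146, 273 to 274 and 312 to 316 CPM in that order, with 1 of 4 called lower than in KO. Of the pluripotency markers 1 was called higher and 2 lower of 6, of those of the primitive streak 1 higher of 6, of erythroid cells 1 lower of 5 and of endothelium 1 lower of 4. No marker was at 0 in any group, and their part in the Cdkn1a values was not tested.

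**Figure D4:**
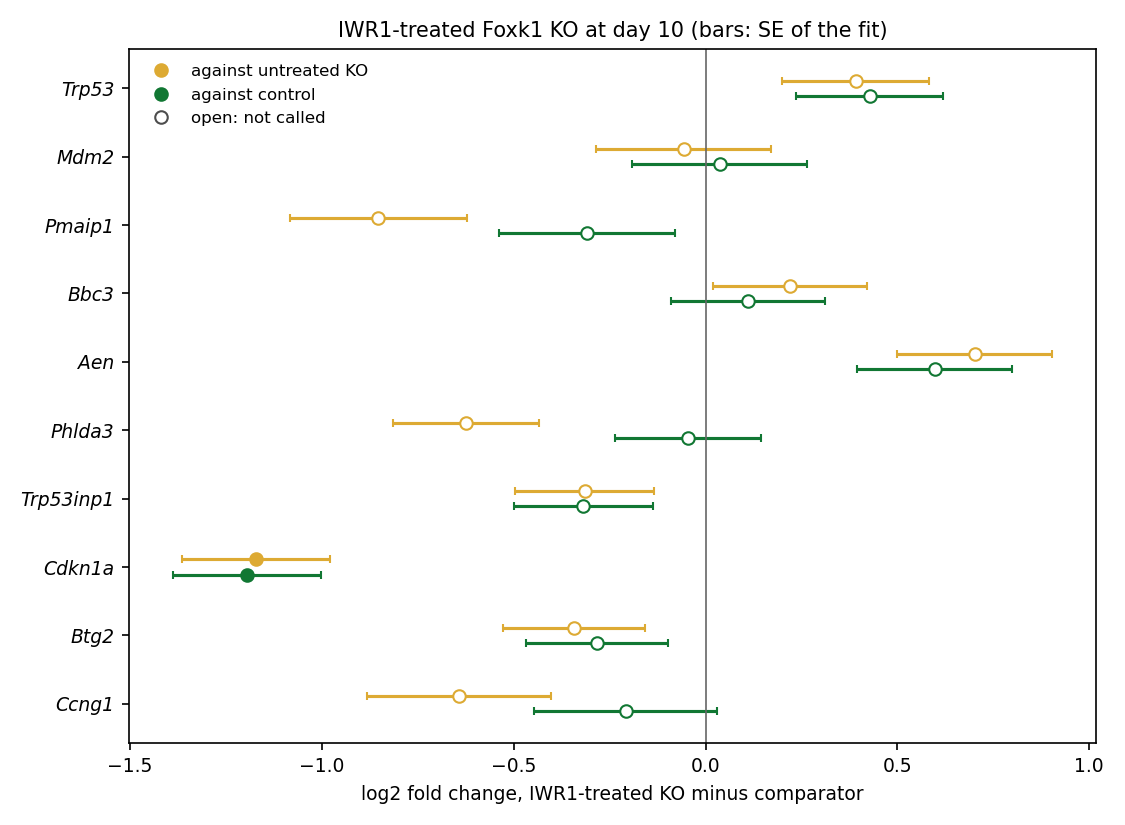
Log2 fold change of IWR1-treated KO at day 10 against untreated KO and against control (colour) for each of the 10 genes (vertical), with the SE of the fit as bars and open points for genes not called. Only the points of Cdkn1a are filled, at -1.17 and -1.20.

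The wider pathway was followed in 4 further lists, also chosen with earlier results of these data known. They are given here by counts and medians only and without a test of the list. Of 38 other known p53 target genes 36 were tested at days 3 and 5. At day 3 17 of them rose in KO and 5 fell, with a median of 0.31. At day 5 25 rose and 3 fell, with a median of 0.58. Of all genes tested 16% rose and 16.9% fell at day 3, and 21.9% rose and 21.7% fell at day 5. Their medians are those given above. The day 3 count of 22 called fell to 12 without control replicate 1 of day 3 and to 14 without KO replicate 1 or replicate 2.

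Zfp365, a gene of genome stability, rose in KO at day 3 from 15.6 ± 3.05 to 60.0 ± 1.31 CPM (1.94 ± 0.14, adjusted p = 8.51e-06) and again at day 5 from 11.7 ± 0.610 to 51.0 ± 6.32 CPM (2.13 ± 0.14, adjusted p = 6.08e-06). Perp, a membrane protein of desmosomes and of p53-dependent death, rose from 14.9 ± 1.93 to 28.8 ± 0.480 CPM (0.95 ± 0.11, adjusted p = 0.000272) at day 3 and from 14.4 ± 1.59 to 79.9 ± 0.448 CPM (2.47 ± 0.11, adjusted p = 5.00e-07) at day 5. Both genes were thus higher in KO on each day. Tnfrsf10b, a death receptor, rose from 33.4 ± 1.56 to 54.6 ± 0.958 CPM (0.71 ± 0.08, adjusted p = 0.000164) at day 3. Gtse1, which counters p53 late in the cell cycle, rose from 89.1 ± 2.34 to 170.0 ± 9.52 CPM (0.93 ± 0.06, adjusted p = 4.66e-06) at day 5. Lif, the cytokine that is also added to the stem cell medium, stood at 11.6 ± 0.282 CPM in KO at day 5 and at 0.298 ± 0.281 CPM in control, where it rested on few counts.

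Of 30 regulators of p53, 29 were tested at days 3 and 5. In KO at day 3, 7 rose and 6 fell (median 0.04), beside 16% and 16.9% of all genes. At day 5, 16 rose and 4 fell (median 0.20), beside 21.9% and 21.7% of all genes. Rpl11, a ribosomal protein that binds and inhibits Mdm2, rose from 552 ± 6.07 to 802 ± 24.1 CPM (0.54 ± 0.04, adjusted p = 1.41e-05) at day 3 and from 479 ± 1.14 to 685 ± 17.6 CPM (0.52 ± 0.04, adjusted p = 1.55e-05) at day 5. Rpl5, which binds Mdm2 with it, rose from 46.9 ± 2.06 to 77.9 ± 1.78 CPM (0.73 ± 0.07, adjusted p = 0.000100) at day 3. Both genes have processed pseudogene copies among which reads may be split, so their values are uncertain. Atm, a kinase of the response to DNA breaks, rose from 43.1 ± 3.22 to 75.9 ± 2.36 CPM (0.82 ± 0.07, adjusted p = 3.48e-05) at day 5. Trp53bp1, a scaffold at such breaks, fell from 169 ± 3.53 to 121 ± 11.3 CPM (-0.48 ± 0.07, adjusted p = 0.000428) at day 5. The day 3 count of 13 called fell to between 6 (KO replicate 1 or control replicate 2 left out) and 8 (KO replicate 2 or control replicate 1), and was 6 with DESeq2.

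The BCL2 family and caspases changed in both directions. Bax and Apaf1 are also among the other p53 target genes above, so the counts of both lists include them. Of 24 genes 23 were tested, and 8 rose and 5 fell at day 3 (median 0.02), beside 16% and 16.9% of all genes. At day 5, 10 rose and 5 fell (median 0.23), beside 21.9% and 21.7% of all genes. Mcl1, the pro-survival protein that Pmaip1 neutralises, rose from 166 ± 2.31 to 254 ± 0.594 CPM (0.61 ± 0.05, adjusted p = 2.16e-05) at day 3. Bcl2l11 (Bim), another BH3-only gene, rose from 29.2 ± 1.87 to 48.8 ± 0.590 CPM (0.74 ± 0.08, adjusted p = 0.000131) at day 3, and pro-survival Bcl2 rose from 5.86 ± 0.0619 to 13.7 ± 0.134 CPM (1.22 ± 0.19, adjusted p = 0.00112). The BH3-only gene Bmf rose at day 3, to 19.7 ± 1.98 CPM in KO (0.59 ± 0.10, adjusted p = 0.00202), as Pmaip1 and Bbc3 did, and was lower in KO at day 5, where it went from 131 ± 4.19 to 61.0 ± 0.287 CPM (-1.10 ± 0.08, adjusted p = 9.25e-06) while those 2 were higher. The change of its KO effect was called (-1.69 ± 0.13, adjusted p = 3.11e-05). Apaf1, the scaffold of the apoptosome and a p53 target, rose from 86.4 ± 2.61 to 146 ± 14.2 CPM (0.76 ± 0.08, adjusted p = 8.11e-05) at day 5. The 13 genes called at day 3 became 6 without control replicate 2 and 7 without KO replicate 2.

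Of 22 cell cycle genes that p21 is known to lower, 3 rose and 3 fell in KO at day 3 (median -0.02), beside 16% and 16.9% of all genes. At day 5, when Cdkn1a was higher in KO, 6 rose and 7 fell (median 0.03), beside 21.9% and 21.7% of all genes. Any link of these values to Cdkn1a was not tested. The log2 fold changes of the 22 genes at day 5 ranged from -0.57 to 0.74. Among those that fell was Mki67, a marker of proliferating cells, from 400.2 ± 26.8 to 302 ± 21.7 CPM (-0.41 ± 0.06, adjusted p = 0.000729). The number called at day 3, 6, was 12 with only the compared groups in the fit. The number called at day 5, 13, was 7 without control replicate 1 or replicate 2, 7 with DESeq2 and 6 with only the compared groups in the fit.

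At day 10 the lists gave few calls. Between KO and control, 2 of 37 other targets rose, the death receptor Fas from 5.56 ± 1.24 to 29.1 ± 10.2 CPM (2.39 ± 0.34, adjusted p = 0.0170) and the epoxide hydrolase Ephx1 from 6.96 ± 1.64 to 28.4 ± 2.27 CPM (2.03 ± 0.25, adjusted p = 0.0123). Of all genes tested 1.92% were called higher and 5.27% either way. Both calls were lost without control replicate 1 (adjusted p = 0.101 for Fas and 0.0716 for Ephx1) or control replicate 2 (0.115 and 0.0942). With IWR1, 1 other target rose and 7 fell against untreated KO, among them Fas from 29.1 ± 10.2 to 3.23 ± 0.589 CPM (-3.17 ± 0.35, adjusted p = 0.00853) and Ephx1 from 28.4 ± 2.27 to 4.73 ± 0.366 CPM (-2.59 ± 0.26, adjusted p = 0.00698). Of all genes tested 5.77% were called higher and 8.08% lower. The 8 called became 3 without KO replicate 1 or IWR1 replicate 1 and 5 without KO replicate 2.

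In that comparison 5 of the 22 cell cycle genes rose with IWR1 and 0 fell, while Cdkn1a was lower. The median of the 22 genes was 0.76 against -0.01 for all genes tested. Any link of these values to Cdkn1a was not tested, nor was the part of the cell types in them. Of all genes 5.77% rose and 8.08% fell with IWR1 against KO, and 2.99% rose and 6.13% fell against control. Mcm5, a subunit of the replicative helicase, rose from 136 ± 0.563 to 310.0 ± 62.3 CPM (1.19 ± 0.22, adjusted p = 0.0207). The 5 calls became 0 without KO replicate 1, KO replicate 2 or IWR1 replicate 1, and 11 without IWR1 replicate 2; DESeq2 called 13. Against control, 4 rose and 0 fell with IWR1 (median 0.71), and 0 were called without control replicate 1, control replicate 2 or IWR1 replicate 1, and 9 without IWR1 replicate 2.

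**Figure D5:**
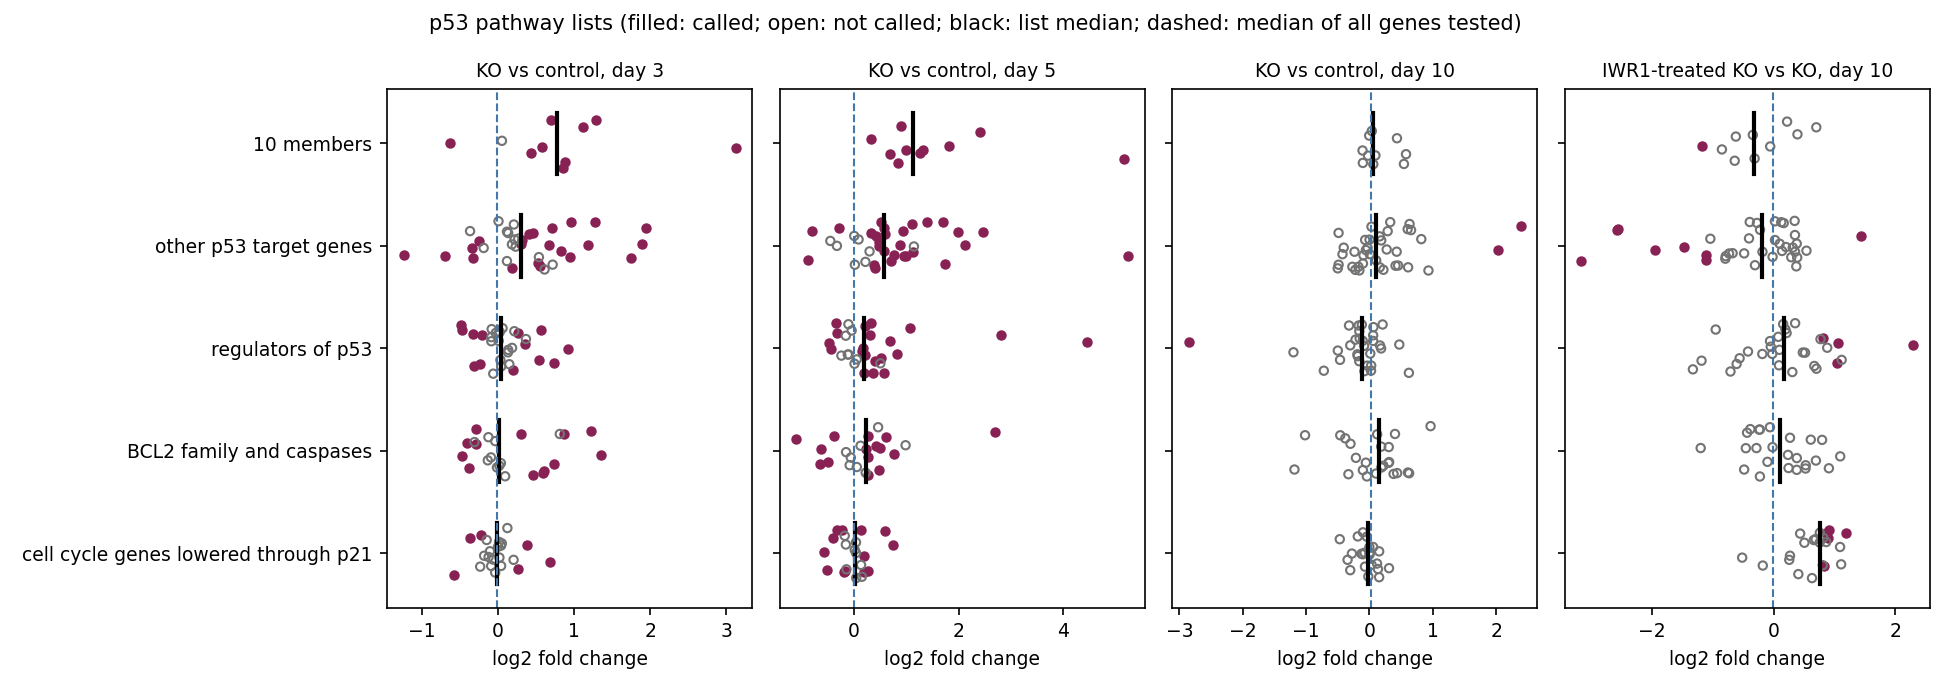
Log2 fold change (horizontal) of every tested gene of the 10 and of the 4 further lists (rows) in 4 comparisons (panels); filled points were called, black bars are list medians and the dashed line is the median of all genes tested. The medians of the 10 genes and of the other p53 targets lie right of the dashed line at days 3 and 5, at 1.12 and 0.58 at day 5.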

How the data were processed

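RNA of 14 libraries was sequenced from both ends and deposited as 1 table for days 3 and 5 and another for day 10. Their values are estimated counts per gene, deposited by the authors as whole numbers and taken here as rounded. Per the submitters' processing notes kallisto 0.46.2 and build mm10 were used. Per the labels' protocols a TruSeq RNA or stranded kit was used, so strand is not settled.

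Either table got its own edgeR fit (4.0.16, under R 4.3.3): filterByExpr on the groups, TMM scaling, robust quasi-likelihood F-test, two-sided, Benjamini-Hochberg adjustment over all genes, threshold 0.05. The fits held 14430 and 17022 genes, with 4 and 3 residual degrees of freedom and common biological coefficients of variation of 0.0915 and 0.248. SE is the absolute log2 fold change over the square root of F, and lone samples in leave-one-out fits are assumed to vary like the other groups. The test was checked on simulated counts. DESeq2 1.42.0, other scalings, no filter, a replicate block, only the compared groups, and each replicate left out were alternatives, and their use on the further lists was added after seeing the data.

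The members and lists were chosen with earlier results of these data known. Named are the members, Foxk1 and, per list and comparison, up to 4 called genes with the smallest p and a mean of at least 5 CPM, of which the text gives a part. Per-length values divide CPM by the union of annotated exons.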

Additional observations from a re-analysis of the deposited data

Results flagged for a closer look

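The KO effect differed between days 3 and 5 for 7 of the 10 genes by the test of the difference itself (day 5 effect minus day 3 effect, the quasi-likelihood test of edgeR, adjusted by Benjamini-Hochberg; 4 groups of 2 libraries). The differences were 2.04 ± 0.13, adjusted p = 1.36e-05 for Pmaip1, 1.53 ± 0.13, adjusted p = 5.60e-05 for Btg2 and 1.37 ± 0.15, adjusted p = 0.000299 for Cdkn1a on the log2 scale. They were 0.95 ± 0.09, adjusted p = 0.000123 for Aen, 0.75 ± 0.12, adjusted p = 0.00183 for Mdm2, 0.64 ± 0.06, adjusted p = 9.52e-05 for Trp53 and 0.40 ± 0.08, adjusted p = 0.00696 for Trp53inp1. Aen was the 1 gene called in opposite directions, lower in KO at day 3 and higher at day 5.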

How the results depend on the processing

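The numbers of members called were within 1.5 times in every alternative for KO against control on each day, for both courses from day 3 to 5 and for the change of the KO effect. For IWR1 against KO, 1 as reported, DESeq2 called 4 and leaving out 1 replicate gave 0 to 2, and for IWR1 against control 0 to 1; fewer samples entered those fits, and the cause of the DESeq2 count was not tested. Same-numbered libraries did not deviate together in days 3 and 5 (correlations of -0.008 to 0.0837). At day 10 the correlations were -0.569, 0.452 and -0.548. Deviations there were shared between groups, but with signs that differed, so the numbers were not taken as pairs. The source of these shared deviations was not tested, and the main fit leaves them in the spread of day 10. A block by replicate number cannot take them up in full, because the signs differ between groups. The block results of day 10 given next therefore do not test a pairing of libraries. With a replicate block the members called were 9, 10 and 0 for KO against control at days 3, 5 and 10, 1 and 1 for IWR1 against KO and control, 7 and 10 for the courses in control and KO, and 7 for the change of the KO effect, as without it, while the cell cycle genes called for IWR1 went from 5 to 0 against KO and from 4 to 0 against control. Of values not called, some crossed 0. With upper-quartile scaling Bbc3 was -0.018 in the control course, Trp53 -0.018 for KO at day 10 and Mdm2 0.011 for IWR1 against KO. Over the fits with 1 replicate left out, values spanned 0 for further genes that were not called. In the control course they were Bbc3 -0.029 to 0.13 and Cdkn1a -0.24 to 0.081. For KO against control at day 10 they were Trp53 -0.14 to 0.16, Cdkn1a -0.16 to 0.13, Mdm2 -0.029 to 0.18, Trp53inp1 -0.14 to 0.086 and Btg2 -0.040 to 0.17. For IWR1 against KO they were Mdm2 -0.32 to 0.16. For IWR1 against control they were Bbc3 -0.017 to 0.23, Mdm2 -0.22 to 0.26 and Phlda3 -0.14 to 0.057. No called member changed sign. Fitting only the compared groups does not apply to the change of the KO effect, which uses all 4. Among the members depth limits Pmaip1 most, in the controls of day 5, where its counts were lowest.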
